A study of Mus musculus with 51 samples.

Results

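The Zdbf2 and Gpr1 locus lies on mouse chromosome 1, and it was taken here as every peak and every 1 kb window between 63.15 and 63.33 Mb of GRCm38. That interval held 29 of the 150793 peaks in the deposited allelic tables of 3 histone marks and 2 tissues, and 180 of the 2462755 windows of the deposited genome-wide signal table. Zdbf2 encodes a zinc finger protein and is transcribed on the forward strand (chr1:63273265-63314576). Gpr1, which encodes a receptor for the chemoattractant chemerin, is transcribed on the reverse strand (chr1:63182691-63214543). Gm11608 is a long non-coding RNA (chr1:63266848-63273120) that starts back to back with Zdbf2, so that the starts of these genes share a peak and could not be separated. A long form of Zdbf2, known as Liz, begins at position 63200358 inside the first part of the Gpr1 gene, at -72.9 kb from the usual Zdbf2 start, beside the non-coding Platr12 (chr1:63200313-63207967).

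Chromatin came from mouse embryos at embryonic day 6.5, dissected into epiblast and extra-embryonic ectoderm (ExE), the trophoblast tissue that contributes to the placenta. Pools of 4 epiblasts or 8 ExE were profiled by native ChIP-seq for H3K4me3, H3K27me3 and H3K36me3, with 2 libraries per mark, tissue and cross, and the chromatin of a pool was split between antibodies and input. The embryos were F1 hybrids of 3 crosses, named with the mother first. B6/CAST had a C57BL6/Babr mother and a CAST/Ei father, CAST/B6 was the reciprocal cross, and both were wild type for the DNA methyltransferases. In matDKO/CAST the mother was C57BL6/Babr/129, carried floxed Dnmt3a and Dnmt3b and the Zp3-cre transgene, which acts in growing oocytes, and the father was CAST/Ei. The matDKO/CAST embryos therefore inherited deleted maternal copies of both genes with intact paternal copies (Dnmt3a -/+, Dnmt3b -/+), and their oocytes had lacked de novo DNA methylation. The mixed 129 background of those mothers and the loss of oocyte methylation came together in this cross and cannot be told apart.

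Imprinted genes are expressed from 1 parental copy. At most of them the difference starts with DNA methylation that the oocyte or the sperm has laid down and that survives in the embryo. H3K4me3 marks active or methylation-free gene starts, H3K36me3 marks transcribed gene bodies, and H3K27me3, the product of the Polycomb complex PRC2, marks repressed domains. Zdbf2 is known as a paternally expressed gene of the brain that affects growth after birth. Its imprint is known to begin at the start of the long transcript, where the oocyte methylates the maternal copy. Transcription of the long form from the unmethylated paternal copy is known to deposit DNA methylation upstream of Zdbf2, which keeps Polycomb away and leaves the paternal Zdbf2 active.

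The sequences around the long and the usual start of Zdbf2 are shown because the H3K4me3 peaks with allelic bias lay over them. Each covers 250 bases before and 50 after the start on the forward strand of GRCm38.p6, as given by RefSeq, and capitals mark TGCCGC on either strand (GCGGCA on the reverse), the core letters that the imprinting factor ZFP57 binds when they are methylated.
Zdbf2 long start, chr1:63200108-63200407: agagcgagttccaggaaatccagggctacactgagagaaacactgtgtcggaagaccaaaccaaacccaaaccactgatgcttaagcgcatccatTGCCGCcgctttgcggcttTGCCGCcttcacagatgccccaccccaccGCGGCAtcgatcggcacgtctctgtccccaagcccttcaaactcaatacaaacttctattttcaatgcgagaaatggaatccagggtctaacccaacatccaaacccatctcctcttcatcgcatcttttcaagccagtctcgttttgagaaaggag
Zdbf2 start, chr1:63273019-63273318: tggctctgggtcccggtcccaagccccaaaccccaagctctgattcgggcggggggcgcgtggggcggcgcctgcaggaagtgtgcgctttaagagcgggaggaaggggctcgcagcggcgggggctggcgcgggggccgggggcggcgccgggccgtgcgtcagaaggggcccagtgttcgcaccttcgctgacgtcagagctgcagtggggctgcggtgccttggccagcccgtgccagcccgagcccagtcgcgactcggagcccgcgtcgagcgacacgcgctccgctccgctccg
The window at the long start held 3 copies of these letters, 2 of them forward and 1 reverse, with a GC content of 51.3% and a CpG count of 0.814 times that expected from its base composition. Among 31396 autosomal promoters of the same length, 11.6% held at least 1 copy and 1.53% held 2 or more. The usual Zdbf2 start had a GC content of 74.7%, a CpG ratio of 0.919 and none of these letters, and the Gpr1 start had a GC content of 41.7%, a CpG ratio of 0.154 and none. Over the whole H3K4me3 peak of ExE at the long start, the letters occurred 4 times in 6.5 kb, more per kb than in 91.5% of the 40468 H3K4me3 peaks of ExE, while its CpG ratio of 0.263 exceeded that of 39.2% of them.

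Reads in the windows numbered 4.71 to 20.8 M per H3K4me3 library, 3.47 to 24.3 M for H3K27me3 and 2.29 to 14.0 M for H3K36me3, with the shallowest library of each mark in matDKO/CAST epiblast. Reads assigned to a parent within all peaks numbered 0.271 to 6.82 M per library. Input gave 0.292 to 0.664 RPKM (reads per kb and M reads) over the peaks and genes of the locus, and it was not subtracted. H3K4me3 at marker gene starts followed the dissection in part. Of 7 epiblast markers 5 were higher in all wild-type epiblast libraries than in all ExE libraries, Pou5f1 among them with 42.9 against 7.85 RPKM. Of 7 ExE markers 4 were higher in ExE, Cdx2 among them with 41.3 against 17.4 RPKM. Elf5 (0.223 RPKM in epiblast and 0.490 in ExE) and Esrrb (0.772 and 0.306 RPKM), the 1 higher in epiblast, lay near the input level. For each gene 1 annotated start was read, and other starts were not. The paper labels Elf5 and Esrrb as genes with preferential expression in ExE. Of 8 visceral endoderm markers 3 were higher in ExE and 1 in epiblast. Their summed level was 52.2 RPKM in wild-type epiblast, 60.8 in matDKO/CAST epiblast, 59.8 in wild-type ExE and 64.3 in matDKO/CAST ExE. None of 3 markers of the deciduum, the maternal tissue around the embryo, separated the tissues. Their summed level was 12.3 RPKM in wild-type epiblast and 19.1 in matDKO/CAST epiblast, and 12.7 and 14.5 in ExE. In matDKO/CAST epiblast the means of Hoxa11 (6.90 RPKM) and Hoxa10 (4.59 RPKM) lay above the highest wild-type epiblast library (5.15 and 3.86 RPKM). There Pou5f1 (37.0 RPKM) and Otx2 (18.0 RPKM) lay below the lowest wild-type epiblast library (37.1 and 18.8 RPKM), and the other epiblast markers within its range. In matDKO/CAST ExE Hnf4a (8.83 RPKM) and Afp (2.42 RPKM) lay above the highest wild-type ExE library (7.69 and 2.06 RPKM), and the other visceral endoderm markers within its range. These values move with the matDKO/CAST comparisons of both tissues below, and the part of other cells in those was not tested.

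Of the 29 peaks, 19 held enough reads to compare the parents, which required 20 reads from 1 parent in 1 wild-type library. Imprinted peaks were those where 1 parent exceeded the other in B6/CAST and again in the reciprocal cross, each at an adjusted p-value under 0.05 in edgeR's quasi-likelihood test, adjusted over all informative peaks. H3K27me3 was maternal over the domain of Zdbf2 in both tissues, H3K27me3 of ExE was paternal at the long start, and H3K4me3 of ExE was paternal at both Zdbf2 starts. These were 5 imprinted peaks, 5 others passed in 1 cross, and 9 passed in neither. In H3K27me3 of epiblast 1 of 1 peaks was maternal against 0.0448% of all informative peaks, and in ExE 1 of 3 was maternal against 0.226% and 1 of 3 paternal against 1.12%. In H3K4me3 of ExE 2 of 5 were paternal against 0.19% of all. No peak was called in both crosses among 5 for H3K4me3 of epiblast (0.0787% of all were paternal), 3 for H3K36me3 of epiblast (0.0361%) and 2 for H3K36me3 of ExE (0.213%), although the count at an adjusted p under 0.05 in 1 cross was 1, 2 and 1. An edgeR fit of both wild-type crosses together did call the Zdbf2 start paternal in H3K4me3 of epiblast (1.93 ± 0.23, adjusted p = 1.1e-05). It also called the H3K36me3 peak of epiblast at chr1:63279000-63286500 (1.85 ± 0.33, adjusted p = 2.7e-05).

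**Figure D1:**
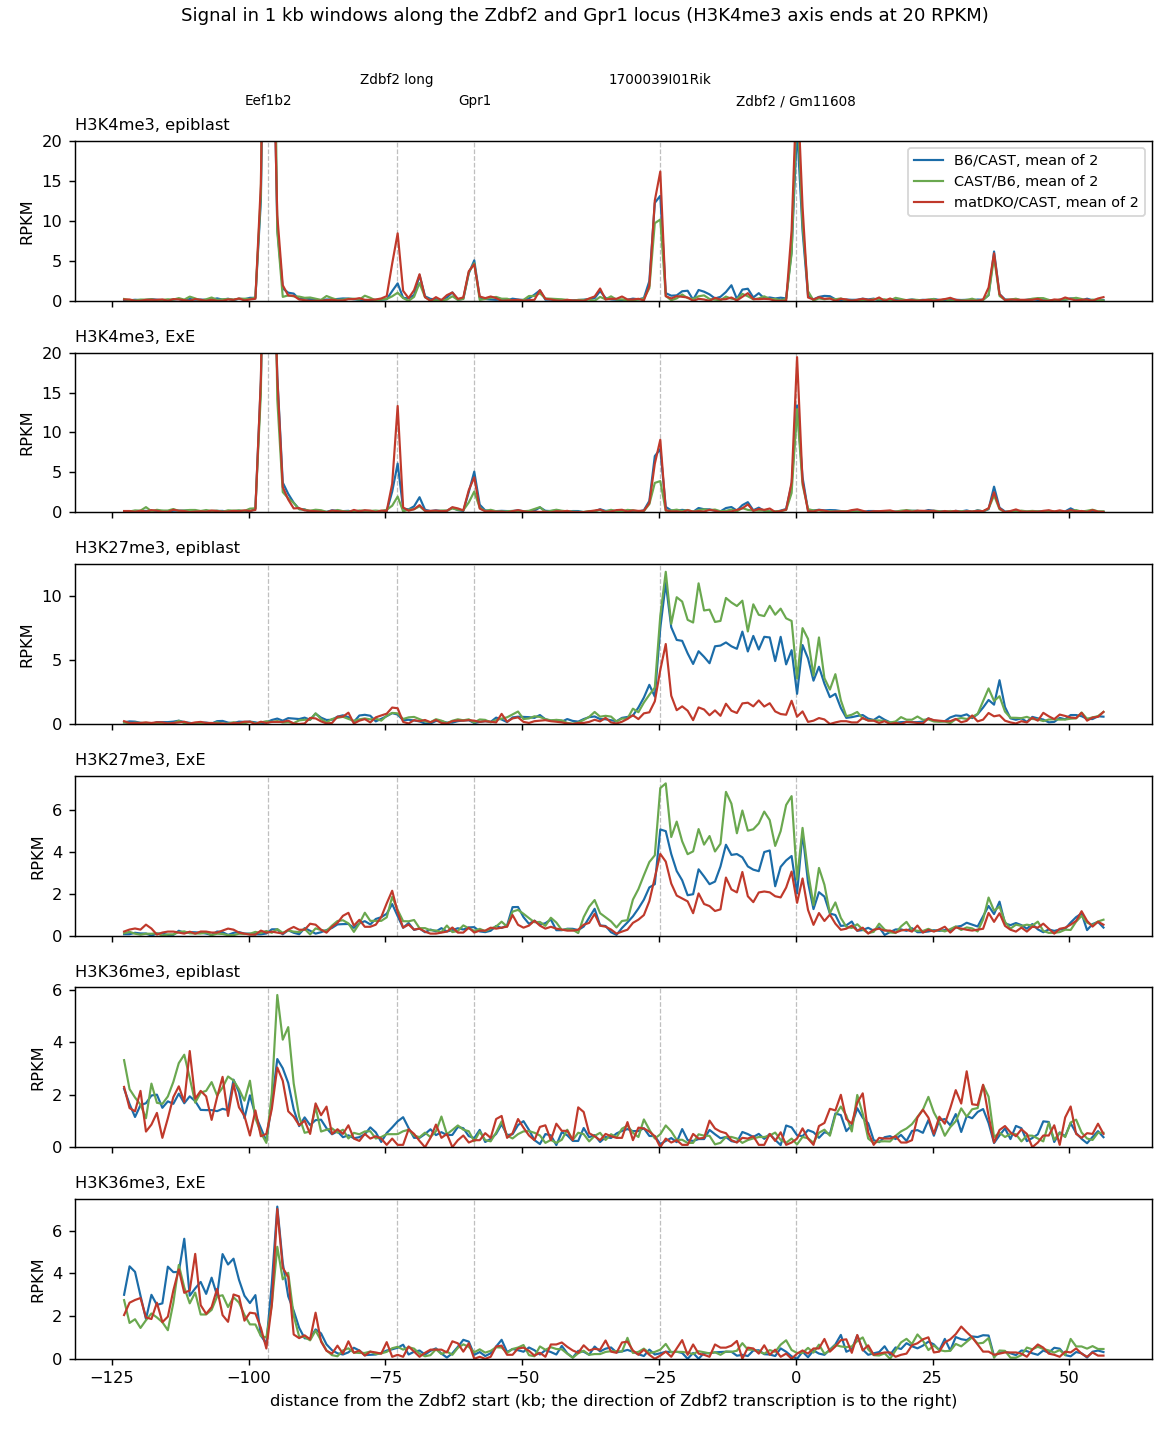
Signal in 1 kb windows (RPKM, vertical axis) by distance from the Zdbf2 start (kb, horizontal axis) for 3 marks and 2 tissues, each line the mean of 2 libraries of a cross. H3K27me3 fills the stretch from 1700039I01Rik to the 5' part of Zdbf2 in both wild-type crosses and is lower in matDKO/CAST, and H3K4me3 at the long Zdbf2 start is highest in matDKO/CAST in both tissues. The H3K4me3 axis ends at 20 RPKM, below the peaks at Eef1b2 and, in epiblast, at Zdbf2.

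In wild-type epiblast a single H3K27me3 domain of 39.5 kb (chr1:63243000-63282500) covered 1700039I01Rik, Gm11608 and the first part of Zdbf2, and most of it sat on the maternal copy. Paternal against maternal reads were 112 to 606 and 89 to 584 in the B6/CAST libraries and 174 to 1260 and 113 to 875 in the CAST/B6 libraries. The B6/CAST libraries were 14.4% ± 1.68 paternal and those of CAST/B6 11.8% ± 0.493 (SD, n = 2 each), so the 4 libraries lay close together whichever strain was the mother. For the tests, each parent's reads were scaled to that parent's reads over all peaks of the library, so that a log2 ratio of 0 stands for the library's own mean share and not for equal reads. That mean share was 44.2 to 48.9% paternal in the matDKO/CAST libraries of the 3 marks, where the scaled ratio lies above that of the reads. The scaled log2 ratio of paternal to maternal reads was -2.49 ± 0.24 (SE, adjusted p = 8.9e-07) and -2.92 ± 0.11 (adjusted p = 1.8e-138). In matDKO/CAST the counts were 82 to 115 and 15 to 28, a paternal share of 38.3% ± 4.77 (SD, n = 2). The scaled ratio of -0.31 ± 0.22 was not called (adjusted p = 0.69). The bias itself differed from B6/CAST by 2.16 ± 0.33 (adjusted p = 0.00051), where 0.179% of all informative peaks were called. The call rested on the deeper matDKO/CAST epiblast library, since without replicate 1 the difference was 1.94 with an adjusted p of 0.51.

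The total level of that domain fell as well. Mean signal was 4.38 and 5.46 RPKM in B6/CAST, 7.02 and 6.63 in CAST/B6, and 1.17 and 1.16 in matDKO/CAST, so no library of 1 genotype reached the other. The change was -1.92 ± 0.18 on the scale of log2(RPKM + 0.5) (limma, adjusted p = 7.0e-12, as for all total levels below), which understates changes at low values, and the median of all H3K27me3 peaks of epiblast moved by -0.14. Multiplying the total by each parent's share gave 3.69, 4.74, 6.17 and 5.87 RPKM for the maternal copy in wild type and 0.682 and 0.753 in matDKO/CAST. The paternal copy gave 0.683, 0.723, 0.852 and 0.758 RPKM in wild type and 0.486 and 0.403 in matDKO/CAST. The maternal copy thus had the larger drop, to about the level of the wild-type paternal copy, while the paternal copy was also below all of wild type. A smaller H3K27me3 peak near the 3' end of Zdbf2 (chr1:63306500-63312000) also fell, from 1.34, 2.05, 1.64 and 1.79 RPKM to 0.575 and 0.408 (-1.15 ± 0.17, adjusted p = 3.1e-06). Both H3K27me3 peaks of epiblast were therefore called lower, where 9.68% of all were. Its allelic reads, 2 paternal and 23 maternal over the 4 wild-type libraries, were too few to test.

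In ExE the domain was wider and less one-sided (chr1:63219000-63284000, 65 kb). Paternal against maternal reads were 201 to 555 and 165 to 473 in B6/CAST and 506 to 1111 and 299 to 612 in CAST/B6. The paternal share was 26.2% ± 0.513 (SD, n = 2) and 32.1% ± 1.08 (SD, n = 2), with log2 ratios of -1.41 ± 0.10 (adjusted p = 5.7e-19) and -1.11 ± 0.09 (adjusted p = 2.1e-21). The matDKO/CAST epiblast did not pass on fewer reads (38.3% ± 4.77 paternal, SD, n = 2), and a pass in 1 tissue alone does not test the tissues against each other. In ExE matDKO/CAST passed the test with the mother higher. Its libraries gave 103 to 242 and 90 to 139 reads, a share of 34.6% ± 6.68 (SD, n = 2) and a scaled ratio of -0.69 ± 0.16 (adjusted p = 0.0070), the 1 informative peak of the locus called in matDKO/CAST, where 2.1% of all informative H3K27me3 peaks of ExE were. That call was lost without matDKO/CAST replicate 2 (-0.44, adjusted p = 0.47) and with DESeq2 (adjusted p = 0.625). The bias was smaller than in B6/CAST by 0.71 ± 0.19 (adjusted p = 0.048), called among 0.742% of all informative peaks. With the library as a block the adjusted p was 0.0017, and with DESeq2 it was 0.526. Against CAST/B6 the difference was 0.43 (adjusted p = 0.12). Fits of all 3 crosses together without 1 library gave a difference from B6/CAST of 0.53 to 0.96, and most did not call it. Those fits used the CAST/B6 libraries, which the test against B6/CAST did not.

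Total H3K27me3 of the ExE domain was 1.95 and 1.89 RPKM in B6/CAST, 3.11 and 2.64 in CAST/B6, and 1.46 and 1.00 in matDKO/CAST. The groups did not overlap, and the change of -0.73 ± 0.15 had an adjusted p of 0.046, 1 of 4 peaks where 0.36% of all were called lower. Leaving out any of the 6 ExE libraries ended this call (-0.93 to -0.54, adjusted p = 0.0614 to 0.259, the lowest without matDKO/CAST replicate 2 and the highest without matDKO/CAST replicate 3), and so did taking B6/CAST alone as the wild type (-0.50, adjusted p = 0.42). The maternal copy stood at 1.43, 1.40, 2.14 and 1.77 RPKM in wild type and at 1.02 and 0.610 in matDKO/CAST. The paternal copy stood at 0.520, 0.490, 0.975 and 0.866 RPKM and at 0.436 and 0.395.

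**Figure D2:**
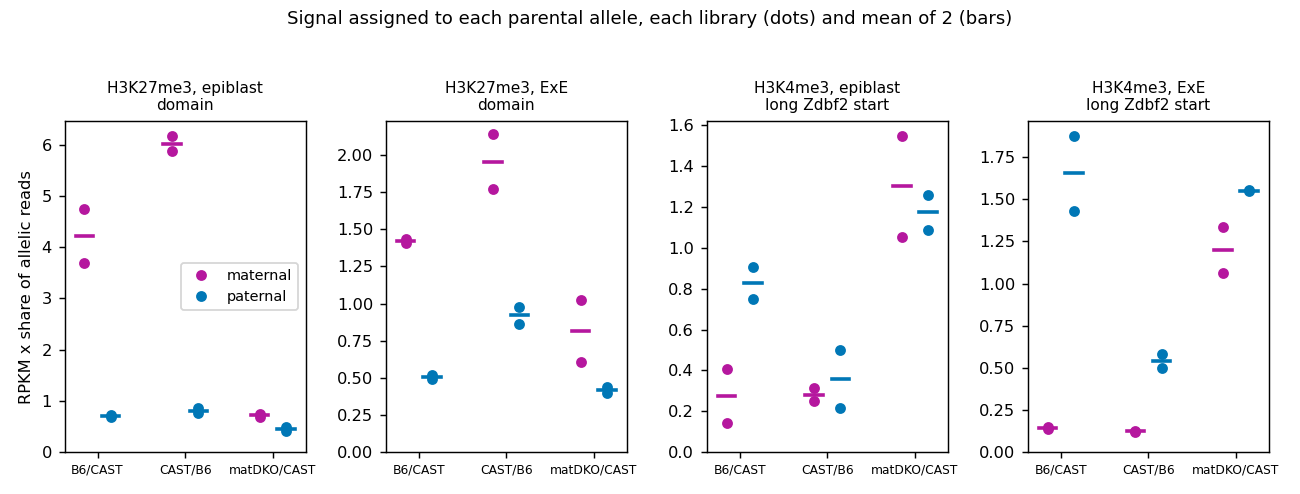
Signal assigned to each parental copy (total RPKM of a peak times that parent's share of allelic reads, vertical axis) in 3 crosses, with a dot per library and a bar at the mean of 2. Maternal H3K27me3 of the domain falls in matDKO/CAST to 0.682 and 0.753 RPKM in epiblast and to 1.02 and 0.610 in ExE, and maternal H3K4me3 at the long Zdbf2 start lies above every wild-type maternal value in both tissues. The vertical axes differ between panels.

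The maternal bias of H3K27me3 was weaker in ExE than in epiblast. Averaged over both wild-type crosses the log2 ratio was -2.72 ± 0.10 in epiblast and -1.25 ± 0.09 in ExE, and the difference of 1.47 ± 0.13 passed the test (adjusted p = 2.8e-09), where 0.239% of 2509 matched peak pairs did. The peaks compared were of unequal length, 39.5 against 65 kb. The part of that inequality in the difference was not tested. The bias also changed less in matDKO/CAST in ExE than in epiblast, by -1.44 ± 0.33 in the edgeR fit, which missed the threshold after adjustment over all pairs (adjusted p = 0.061). For H3K4me3 none of 2 matched pairs of the locus differed between tissues, where 0.0474% of all did, and for H3K36me3 none of 2, where 0.0457% did.

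Tiles of 5 kb showed where in the locus total H3K27me3 was lower in matDKO/CAST. Of 37 tiles 17 had a mean of at least 0.5 RPKM and were tested. In epiblast 11 of them, 55 kb in all, were called lower and none higher, where 2.71% of all tiles were called lower. In ExE 7 were called lower, 35 kb, where 0.304% of all were. The fall in epiblast was largest just inside Zdbf2 (chr1:63275001-63280000), where the mean was 3.64 RPKM in B6/CAST and 4.69 RPKM in CAST/B6 against 0.248 RPKM in matDKO/CAST (-2.63 ± 0.20, adjusted p = 7.2e-31). In ExE the largest fall was at chr1:63255001-63260000, between 1700039I01Rik and Gm11608, from 2.86 and 4.52 RPKM to 1.47 (-1.08 ± 0.22, adjusted p = 0.0012). Over the ExE tiles the count depended on single libraries. Without matDKO/CAST replicate 3 it was 0 kb, without CAST/B6 replicate 1 or 2 it was 5 kb, and without B6/CAST replicate 1 or 2 it was 15 or 10 kb. With B6/CAST alone as the wild type it was 0 kb, and with no filter on low tiles 0 kb. The change differed between tissues in 2 of the 17 tiles, where 0.0106% of all tiles did. Both lay side by side at the start of the Zdbf2 body, with differences of 1.80 ± 0.28 at chr1:63275001-63280000 (adjusted p = 1.8e-05) and of 1.07 ± 0.22 at chr1:63280001-63285000 (adjusted p = 0.016). For the whole domain that difference of 0.96 ± 0.21 was not called (adjusted p = 0.36). The 3 tiles around the long start of Zdbf2 changed by -0.10 to 0.18 in the 2 tissues and none was called.

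**Figure D3:**
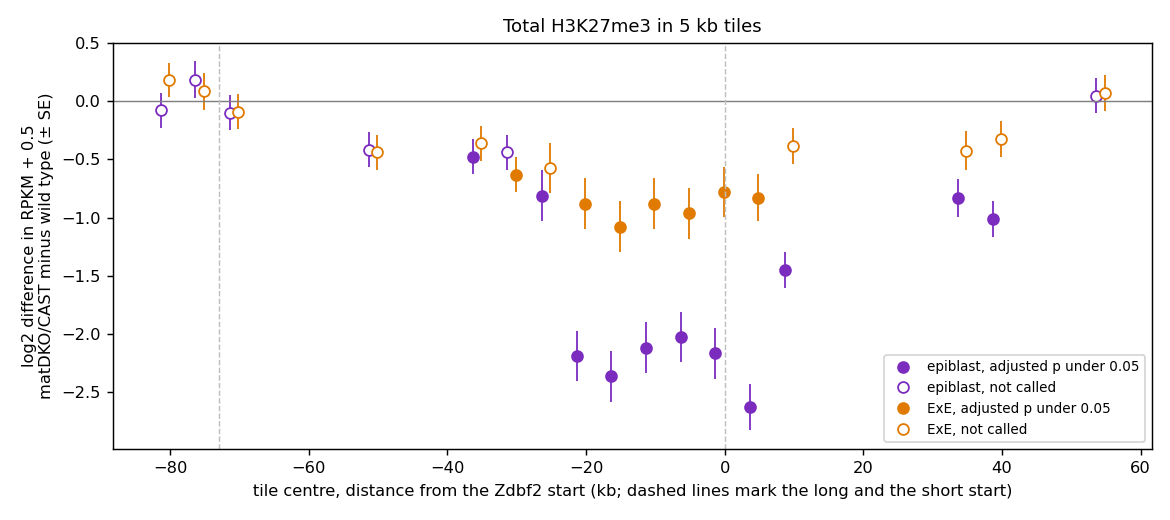
Difference in total H3K27me3 between matDKO/CAST (2 libraries) and wild type (4 libraries) in 5 kb tiles (log2 of RPKM + 0.5, vertical axis, bars show the SE) by distance from the Zdbf2 start (kb, horizontal axis). In epiblast the 6 tiles of chr1:63250001-63280000, around and just upstream of the Zdbf2 start, lie between -2.63 and -2.03, and in ExE every tile lies at -1.08 or above.

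At the long start of Zdbf2 in ExE, H3K4me3 sat on the paternal copy in wild type and on both copies in matDKO/CAST. The peak (chr1:63199000-63205500) held 137 paternal against 11 maternal and 84 against 8 reads in B6/CAST, and 29 against 7 and 28 against 6 in CAST/B6. The paternal share was 91.9% ± 0.893 (SD, n = 2) and 81.5% ± 1.27 (SD, n = 2), with log2 ratios of 3.56 ± 0.26 (adjusted p = 1.0e-10) and 2.07 ± 0.41 (adjusted p = 0.0014). All 4 wild-type libraries stood well above equal shares. In matDKO/CAST the reads were 88 to 60 and 66 to 57, a share of 56.6% ± 4.10 (SD, n = 2), and the ratio of 0.49 ± 0.24 was not called (adjusted p = 0.46). The bias fell by 3.06 ± 0.38 against B6/CAST (adjusted p = 7.5e-05), 1 of 5 informative peaks where 0.892% of all were called, and that call held without each of the 6 libraries in turn (-3.30 to -2.84). Against CAST/B6 the bias fell by 1.61 ± 0.47 (adjusted p = 0.032). The call in CAST/B6, with 36 and 34 reads per library, was lost without its replicate 1 (2.14, adjusted p = 0.0927) or 2 (1.97, adjusted p = 0.134), and with DESeq2 (2.09, adjusted p = 0.107), under which the peak was not imprinted by the rule of both crosses.

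Total H3K4me3 of that ExE peak was 2.02 and 1.57 RPKM in B6/CAST, 0.616 and 0.709 in CAST/B6, and 2.61 and 2.88 in matDKO/CAST. matDKO/CAST was the highest group, by 0.99 ± 0.22 against both wild types (adjusted p = 0.018), 1 of 8 peaks where 0.329% of all were called higher. The wild-type crosses differed from each other too, by -0.98 ± 0.26 for CAST/B6 minus B6/CAST (adjusted p = 0.022), against a median of -0.41 over all H3K4me3 peaks of ExE. Against B6/CAST alone the rise was 0.51 (adjusted p = 0.79), and with each library centred on its median it was 0.80 (adjusted p = 0.073). It also missed the threshold without CAST/B6 replicate 1 (adjusted p = 0.0650), matDKO/CAST replicate 2 (0.0821) or 3 (0.104), or B6/CAST replicate 2 (0.124). By parent, the maternal copy rose from 0.150, 0.136, 0.120 and 0.125 RPKM in wild type to 1.06 and 1.34 in matDKO/CAST. The paternal copy stood at 1.87, 1.43, 0.496 and 0.584 RPKM in wild type and at 1.55 and 1.55 in matDKO/CAST. Every maternal value of matDKO/CAST thus lay above every maternal value of wild type, while the paternal values overlapped.

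Epiblast had the same peak with fewer allelic reads (chr1:63199000-63207000). Paternal against maternal reads were 48 to 9 and 47 to 21 in B6/CAST, 7 to 8 and 8 to 5 in CAST/B6, and 59 to 57 and 26 to 32 in matDKO/CAST. The shares were 76.7% ± 10.7, 54.1% ± 10.5 and 47.8% ± 4.27 (SD, n = 2 each), and the CAST/B6 libraries, with 13 to 15 reads each, lay on both sides of equal shares (0.31 ± 0.81, adjusted p = 0.99). The ratio of 1.68 ± 0.49 in B6/CAST was not called (adjusted p = 0.15). Without 1 library it was read from fits of all 3 crosses together, 2.47 without B6/CAST replicate 2 and 1.17 without replicate 1. It was 1.69 and 1.70 without CAST/B6 replicate 2 or 3, libraries that the main fit of B6/CAST did not use. Some of these fits called it, with the model changed as well. The difference from matDKO/CAST was not called either (-1.70 ± 0.58, adjusted p = 0.51), and none of the 5 informative H3K4me3 peaks of epiblast was, where 0.674% of all were. With the library as a block, which the pairing of the parents within a library allows, the B6/CAST ratio and this difference were called (1.72, adjusted p = 1.1e-06, and -1.67, adjusted p = 0.0064). Total H3K4me3 was 0.888 and 1.31 RPKM in B6/CAST, 0.465 and 0.812 in CAST/B6, and 2.14 and 2.81 in matDKO/CAST. It rose by 1.15 ± 0.23 (adjusted p = 0.00055), 1 of 8 peaks where 5.64% of all were called higher and the median of all moved by 0.13. The rise was 0.90 against B6/CAST alone (adjusted p = 0.13) and 0.98 without matDKO/CAST replicate 2 (adjusted p = 0.060). The bias was larger in ExE than in epiblast by 1.85 ± 0.55, which was not called (adjusted p = 1.0, and 0.064 with the library as a block).

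Within 1 kb of the long start the contrast in level was plainest. H3K4me3 there was 1.62, 1.77, 0.228 and 1.34 RPKM in wild-type epiblast and 5.86 and 7.24 in matDKO/CAST epiblast. In ExE it was 5.05, 3.66, 1.22 and 1.60 RPKM in wild type and 7.71 and 9.20 in matDKO/CAST. Within 1 kb of the Gpr1 start, in the same gene, it was 2.13 to 2.93 RPKM in wild-type epiblast against 2.62 and 2.50, and 1.38 to 3.76 in wild-type ExE against 2.73 and 2.14. The groups were apart at the long start in both tissues and overlapped at the Gpr1 start in both, and these values were not tested on their own.

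The long start of ExE also carried a low H3K27me3 peak (chr1:63192500-63204000) with the father higher, the opposite of the Zdbf2 domain. Paternal against maternal reads were 33 to 19 and 41 to 19 in B6/CAST, 84 to 25 and 62 to 14 in CAST/B6, and 32 to 35 and 17 to 20 in matDKO/CAST. The paternal share was 65.9% ± 3.44, 79.3% ± 3.19 and 46.9% ± 1.28 (SD, n = 2 each), and the matDKO/CAST libraries lay below all of wild type. The scaled ratios were 1.04 ± 0.29 (adjusted p = 0.011), 1.89 ± 0.25 (adjusted p = 6.1e-10) and 0.11 ± 0.32 (adjusted p = 0.92). The call in B6/CAST was lost without its replicate 1 (1.17, adjusted p = 0.148) or 2 (0.89, adjusted p = 0.307), and with DESeq2 (adjusted p = 0.353). The difference between matDKO/CAST and B6/CAST was not called (-0.94 ± 0.43, adjusted p = 0.63), whereas that from CAST/B6 was (-1.76 ± 0.40, adjusted p = 0.00097). The total level was 0.575, 0.855, 0.815 and 0.855 RPKM in wild type and 0.973 and 0.606 in matDKO/CAST and gave no call (0.01 ± 0.14, adjusted p = 0.99). Of the other H3K27me3 peaks of ExE, that beyond the 3' end of Zdbf2 (chr1:63324500-63333500) had a paternal share of 60.2% ± 3.26 in B6/CAST and 48.6% ± 9.12 in CAST/B6 (SD, n = 2 each) with no call, and that near the 3' end (chr1:63306500-63317500) held too few allelic reads and had no call in total (-0.35 ± 0.12, adjusted p = 0.18).

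**Figure D4:**
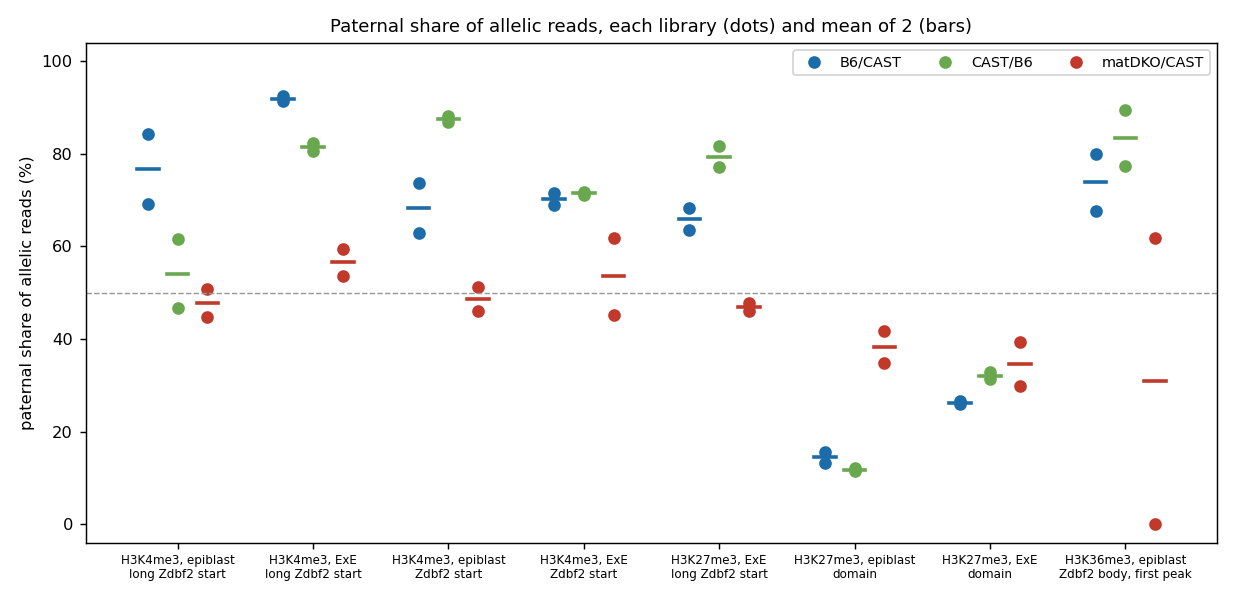
Paternal share of allelic reads (%, vertical axis) at 8 peaks of the locus, with a dot per library, a bar at the mean of 2 and a dashed line at 50%. H3K4me3 of ExE at the long start and H3K27me3 of both domains stand apart from 50% in both wild-type crosses. In matDKO/CAST both H3K27me3 domains stay below 50%, at 29.9 and 39.3% in ExE and at a mean of 38.3% in epiblast.

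At the shared start of Zdbf2 and Gm11608, H3K4me3 was higher on the paternal copy in wild type in both tissues. In ExE (chr1:63271500-63275500) paternal against maternal reads were 42 to 19 and 40 to 16 in B6/CAST and 28 to 11 and 32 to 13 in CAST/B6. The share was 70.1% ± 1.82 and 71.5% ± 0.483 (SD, n = 2 each) and the ratios were 1.28 ± 0.30 (adjusted p = 0.0041) and 1.27 ± 0.36 (adjusted p = 0.029). The 4 libraries lay between 68.9 and 71.8%, on 39 to 61 reads each. Without 1 library, fits of all 3 crosses together gave 1.19 to 1.36 in B6/CAST and 1.23 to 1.30 in CAST/B6. The B6/CAST call was lost without either of its replicates. The CAST/B6 call was lost without either replicate of CAST/B6 or of B6/CAST, though its main fit used no B6/CAST library. DESeq2 called neither cross (adjusted p = 0.140 and 0.576). matDKO/CAST gave 34 to 21 and 14 to 17 reads, a share of 53.5% ± 11.8 (SD, n = 2), neither called (0.39 ± 0.43, adjusted p = 0.85) nor different from B6/CAST by the test (-0.87 ± 0.53, adjusted p = 1.0). Total signal was 4.71, 4.07, 3.50 and 4.31 RPKM in wild type and 5.53 and 5.51 in matDKO/CAST (0.38 ± 0.19, adjusted p = 0.59).

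In epiblast the same start (chr1:63270500-63279500) gave 101 to 36 and 90 to 53 reads in B6/CAST, 125 to 19 and 37 to 5 in CAST/B6, and 76 to 89 and 23 to 22 in matDKO/CAST. The paternal share was 68.3% ± 7.63, 87.5% ± 0.912 and 48.6% ± 3.57 (SD, n = 2 each), so every wild-type library lay above both of matDKO/CAST. The ratio was called in CAST/B6 (2.73 ± 0.33, adjusted p = 2.5e-05), 1 of 5 peaks where 0.994% of all were paternal in that cross, and not without its replicate 2 (2.85, adjusted p = 0.0612). In B6/CAST it was 1.13 ± 0.30 (adjusted p = 0.10, and 2.0e-07 with the library as a block). Fits of all 3 crosses together without 1 library gave 0.78 without B6/CAST replicate 1 and up to 1.56, without B6/CAST replicate 2. Most of these fits called it, but they differ from the main fit, which used B6/CAST alone, in model as well. A joint fit of both wild-type crosses called it paternal (1.93 ± 0.23, adjusted p = 1.1e-05), with a strain term for CAST minus B6 that was also called (-0.80 ± 0.23, adjusted p = 0.037). The difference from matDKO/CAST was -1.15 ± 0.39 against B6/CAST (adjusted p = 0.50, and 0.013 with the block) and -2.77 ± 0.42 against CAST/B6 (adjusted p = 2.0e-06). The total level was 4.26, 3.70, 4.63 and 4.01 RPKM in wild type and 5.63 and 4.39 in matDKO/CAST (0.24 ± 0.20, adjusted p = 0.62).

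The other H3K4me3 peaks gave no call in both crosses. At the Gpr1 start the paternal share in wild type was 33.1% ± 6.88 and 40.1% ± 25.2 in epiblast and 45.0% ± 3.83 and 52.3% ± 24.0 in ExE (SD, n = 2 each), from 9 to 58 reads per library. In epiblast its B6/CAST ratio of -0.88 ± 0.55 (adjusted p = 0.68) passed with the library as a block (-0.91, adjusted p = 0.049). At the unclassified transcript 1700039I01Rik the ExE peak (chr1:63246000-63250000) was paternal in B6/CAST, with 73 to 35 and 48 to 34 reads (0.84 ± 0.24, adjusted p = 0.015, 1 of 5 peaks where 6.2% of all were paternal in that cross), but not in CAST/B6, with 18 to 12 and 29 to 26 (0.26 ± 0.39, adjusted p = 0.80). With DESeq2 the former had an adjusted p of 0.324. In fits of all 3 crosses together without 1 library its ratio was 0.54 to 1.11, and most did not call it. Its epiblast peak (chr1:63246000-63269000) was 42.6% ± 5.51 paternal in B6/CAST, 59.3% ± 10.5 in the reciprocal cross and 58.4% ± 3.84 with matDKO mothers (SD, n = 2 each), with a difference from B6/CAST of 0.99 ± 0.38 (adjusted p = 0.92, and 0.048 with the block). The peak shared by the translation factor gene Eef1b2 and Ndufs1, a subunit of respiratory complex I, served as a neighbour with many reads. Its paternal share was 48.7 and 52.0% in epiblast and 49.8 and 52.3% in ExE in the 2 wild-type crosses, and 46.3 and 50.1% in matDKO/CAST. The other 6 H3K4me3 peaks, all at or below 3 kb in length, held too few allelic reads to test.

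H3K36me3 over the Zdbf2 body leaned to the father, but on few reads. In epiblast the first peak (chr1:63279000-63286500) gave 12 to 3 and 21 to 10 reads in B6/CAST, 34 to 4 and 24 to 7 in CAST/B6, and 0 to 5 and 13 to 8 in matDKO/CAST. The second (chr1:63294500-63309000) gave 2 to 3 and 20 to 14, 18 to 5 and 19 to 3, and 2 to 3 and 7 to 13. Both were called in CAST/B6, with paternal shares of 83.4% ± 8.52 (SD, edgeR adjusted p = 1.0e-05) and 82.3% ± 5.73 (SD, edgeR adjusted p = 0.0034), 2 of 3 peaks where 1.76% of all were paternal in that cross, and neither in B6/CAST (1.41 ± 0.51, adjusted p = 0.24, and 0.41 ± 0.55, adjusted p = 0.91). The first call was lost without CAST/B6 replicate 1 (adjusted p = 0.415) and the second without replicate 1 (0.253) or 2 (0.591). In ExE the body peak (chr1:63292500-63309000) gave 13 to 0 and 12 to 5 reads in B6/CAST, 20 to 6 and 6 to 8 in CAST/B6, and 0 to 5 and 7 to 7 in matDKO/CAST. It was called in B6/CAST (2.33 ± 0.67, adjusted p = 0.012), 1 of 2 peaks where 2.76% of all were. That call was lost with DESeq2 (adjusted p = 1.0) and with the library as a block (0.118). In fits of all 3 crosses together without 1 library the ratio was 1.30 to 6.24, and not all of them called it. In epiblast the total over both body peaks was 1.11, 0.884, 1.09 and 1.06 RPKM and 0.936, 0.943, 1.38 and 1.25 in wild type, and 1.68 and 1.11 and 1.31 and 1.57 in matDKO/CAST, with no call (0.29 ± 0.14, adjusted p = 0.31, and 0.26 ± 0.10, adjusted p = 0.22). Short H3K36me3 peaks at the long start in epiblast (chr1:63199500-63202500) and inside Zdbf2 in ExE (chr1:63280500-63282500) held 5 to 15 allelic reads per wild-type library and were not tested for bias. None of the 7 H3K36me3 peaks of the locus was called in total signal between matDKO/CAST and wild type, with limma or with edgeR on reads recovered from the RPKM values. Of all H3K36me3 peaks 0.0334% were higher and 0.2% lower in matDKO/CAST epiblast, and 0% were higher and 0.0233% lower in ExE.

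The wild-type tissues differed in total level at several peaks of the locus, mostly with less H3K4me3 in ExE and in both directions for the other marks. For H3K4me3 5 of 8 merged peaks were called higher in epiblast, where 18.9% of all were. The Zdbf2 and Gm11608 start was lower in ExE by 0.79 on the log2 scale (-0.79 ± 0.15, adjusted p = 6.5e-05), and a peak near the 3' end of Zdbf2 (chr1:63308000-63311000) changed by -0.78 ± 0.16 (adjusted p = 0.00023). The merged peak that holds 1700039I01Rik (chr1:63246000-63269000), 23 kb long where the ExE peak at that gene is 4 kb, changed by -0.66 ± 0.17 (adjusted p = 0.0022). The long start of Zdbf2 did not pass (0.17 ± 0.18, adjusted p = 0.44). Of the other 2 calls, that at chr1:63237000-63238000 was lost without B6/CAST ExE replicate 1 (adjusted p = 0.0918) and that at chr1:63225000-63227000 without 7 of the 8 libraries in turn (adjusted p = 0.0588 to 0.246), kept only without B6/CAST Epi replicate 1. For H3K27me3 the domain (-0.57 ± 0.12, adjusted p = 0.0018) and the peak at the 3' end (-0.33 ± 0.10, adjusted p = 0.011) were higher in epiblast, 2 of 4 where 8.68% of all were. The peak at the long start was higher in ExE (0.36 ± 0.12, adjusted p = 0.020), 1 of 4 where 45.2% of all were and where the median of all was 0.21. These shares of all depend on the scaling. With each library centred on its median, 2549 of 23395 peaks were called higher in ExE and 3735 higher in epiblast. The call at the 3' end was lost without B6/CAST Epi replicate 2 (adjusted p = 0.0573), and that at the long start with each library centred on its median (0.15, adjusted p = 0.39) and without CAST/B6 Epi replicate 2, CAST/B6 ExE replicate 2, B6/CAST Epi replicate 2 or B6/CAST ExE replicate 2 (adjusted p = 0.0501 to 0.0892). For H3K36me3 both body peaks of Zdbf2 were higher in epiblast (-0.47 ± 0.11, adjusted p = 0.0060, and -0.31 ± 0.08, adjusted p = 0.0084), 2 of 4 where 28.1% of all were and the median was -0.14, and that over Eef1b2 and Ndufs1 was higher in ExE (0.36 ± 0.07, adjusted p = 0.0021), 1 of 4 where 22.9% were. In bulk tissue fewer cells with a mark and less of it per cell cannot be told apart.

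Other genes with oocyte-derived imprints gave a scale for these values. The list held 15 genes, most with a maternally methylated germline region, among them Peg3, Kcnq1ot1, Airn, Peg13 and Grb10, and Slc38a4, an amino acid transporter gene for which both maternal DNA methylation and maternal H3K27me3 have been described. Each gene was read at the peak over 1 annotated start, which was not matched to the germline region, so the calls and medians are those of gene starts. In epiblast 13 of the genes had an informative H3K4me3 peak at their start, 7 of them paternal, 1 maternal (Grb10) and 5 not called. In ExE 12 did, with 9 paternal, 1 maternal and 2 not called. The median log2 ratio in B6/CAST was 2.86 in epiblast and 1.66 in ExE, against 0.003 and 0.000 over all informative peaks. The median difference between matDKO/CAST and B6/CAST was -2.10 with 8 called in epiblast, and -1.74 with 9 called in ExE, against 0.009 and 0.013 over all. Slc38a4 was the 1 listed gene called in matDKO/CAST in each tissue (1.35 and 2.38). Of 8 other genes in or around the interval, Eef1b2 and Ndufs1 inside it among them, 7 had an informative H3K4me3 peak in each tissue, some sharing a peak, and none was imprinted. The difference between matDKO/CAST and B6/CAST was called for none in epiblast and for 1 in ExE, Nrp2 (-1.13, adjusted p = 0.0019). Nrp2, a semaphorin co-receptor, was called maternal in matDKO/CAST in both tissues (-0.69, adjusted p = 0.0026, and -0.78, adjusted p = 0.025) with wild-type shares of 50.2 and 52.6% paternal.

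**Figure D5:**
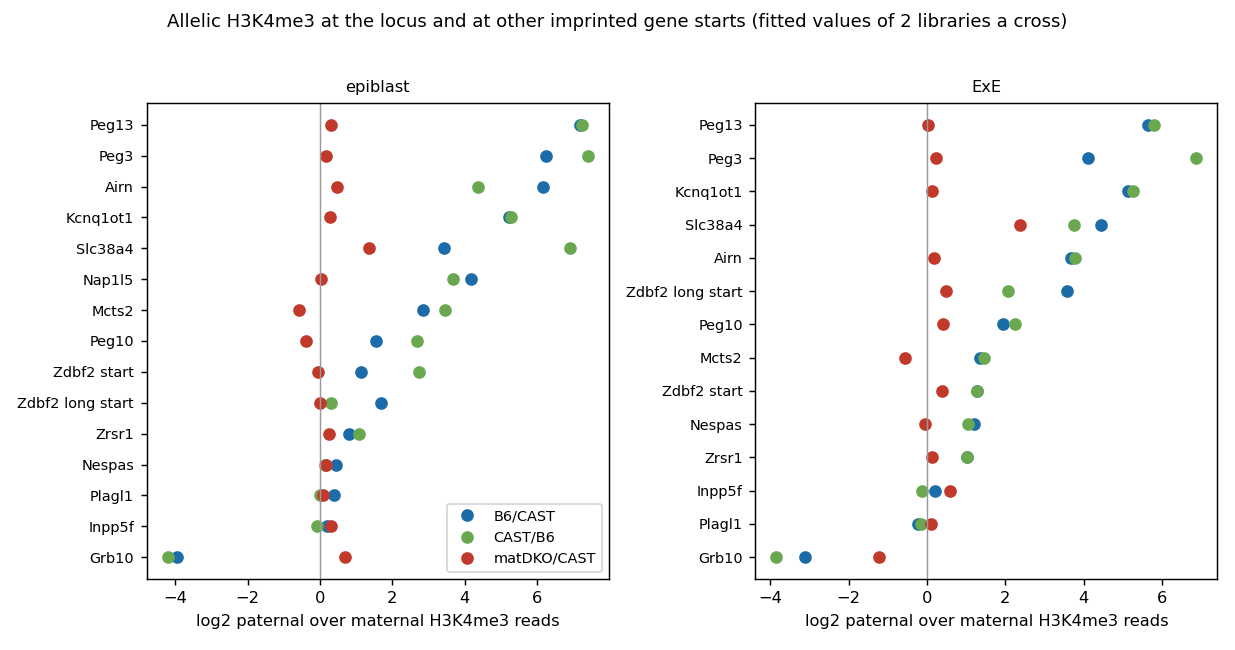
Log2 ratio of paternal to maternal H3K4me3 reads (horizontal axis, fitted values of 2 libraries per cross) at the Zdbf2 starts and at the starts of other listed imprinted genes, ordered by the sum of the 2 wild-type values. In ExE the long Zdbf2 start moves from 3.56 and 2.07 in wild type to 0.49 in matDKO/CAST, and Slc38a4 stays at 2.38.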

How the data were processed

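Native ChIP-seq libraries (36, with 15 inputs) covered 18 groups of 2. The authors trimmed reads with Trim Galore (0.4.4 in the submitters' processing notes, a version the methods do not give for ChIP-seq), aligned them with Bowtie2 2.3.2 to GRCm38 with strain variants masked, and split them by parent. The deposited allelic tables hold read counts per parent over peaks called per cross and merged per mark and tissue. For matDKO/CAST the authors added reads assigned to 129 to the maternal side, which can raise maternal counts alone. The deposited window table holds RPKM values that the authors computed per library. The deposited peak lists carry a score that is 0 throughout, and the 12 lists were not used. No column was left without a sample (0).

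Counts were tested with edgeR 4.0.16 (quasi-likelihood, TMM factors per parental column), per cross and as the difference in bias between crosses, on autosomal peaks with at least 20 reads from 1 parent in a wild-type library. The maternal and paternal counts of 1 library share their chromatin, and a fit with the library as a block was the alternative. Peak means of RPKM were tested as log2(RPKM + 0.5) with limma 3.58.1, and 5 kb tiles likewise where the mean was at least 0.5 RPKM. DESeq2 1.42.0 and other settings were alternatives. p-values were adjusted by Benjamini-Hochberg over all features, at 0.05. Nothing states that libraries of a group came from separate litters, so p-values measure the spread between pools. Every peak of the interval was accounted for and named by the gene whose start (within 1 kb) or body it overlapped. The members and lists were chosen with earlier results of these data known. Scripts were tested on simulated data. R 4.3.3 and Python 3.11.15 were used.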

Additional observations from a re-analysis of the deposited data

Results flagged for a closer look

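These 3 results differed between epiblast and ExE by a test of the difference itself. The maternal bias of H3K27me3 over the Zdbf2 domain was weaker in ExE, with a difference of 1.47 on the log2 scale over 8 wild-type libraries (4 per tissue). The fall of total H3K27me3 in matDKO/CAST was smaller in ExE at chr1:63275001-63280000, by 1.80 on the scale of log2(RPKM + 0.5), and at chr1:63280001-63285000, by 1.07. The tile tests were chosen after seeing the data.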

How the results depend on the processing

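No called result changed direction under the settings tried. Values that were not called did in places without 1 library, such as the B6/CAST bias of H3K36me3 at chr1:63294500-63309000 in epiblast (-0.51 to 0.58), the matDKO/CAST bias of H3K4me3 at the Zdbf2 start in ExE (-0.23 to 0.86) and the matDKO/CAST change of total H3K27me3 at the long start in ExE (-0.20 to 0.21). DESeq2 moved the H3K4me3 peaks imprinted in both crosses from 2 to 0, and leaving out 1 library gave 0 to 3. H3K4me3 peaks whose bias differed in matDKO/CAST numbered 1, 2 with CAST/B6 as control and 4 with the library as a replicate block. For H3K27me3 that count went from 2 to 1 with DESeq2, to 1 with no filter on reads, and to 1 to 2 without 1 library. For H3K36me3 a joint fit of both wild types called 1 paternal peak instead of 0, and CAST/B6 as control called 1 difference instead of 0. H3K4me3 totals called in matDKO/CAST went from 2 to 1 with median centring, 1 with the replicate number as a block, 0 with B6/CAST alone, and 1 to 2 without 1 library. Totals called between tissues went from 5 to 3 for H3K4me3 with edgeR on reads recovered from RPKM (100% of low values were whole reads within 0.1), to 3 to 5 without 1 library, and for H3K27me3 from 3 to 1 to 3 without 1 library. The tiles called in epiblast fell from 55 to 30 kb with no filter (45 to 55 kb without 1 library). In ExE 35 kb became 0 with no filter, 20 with edgeR, 15 with the replicate number as a block, 0 with B6/CAST alone, 2 with 2 kb tiles, and 0 to 30 kb without 1 library. The cause was not tested. Replicate numbers did not pair libraries across groups: of 69 same-number pairs 7 correlated above 0.1 (r = -0.35 to 0.345). A fit with 1 library left in a cross assumes that it varies like the others.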
